A study of Macaca mulatta with 52 samples.

Results

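The MCM replication licensing genes are 10 genes chosen by name, with earlier results of these data known: MCM2, MCM3, MCM4, MCM5, MCM6, MCM7, MCM10, CDC6, GMNN and ORC1. A named row was found for 9 of the 10 among 26309 gene identifiers of the rhesus monkey (Macaca mulatta), of which 15078 could be paired with a name. ORC1, the largest subunit of the origin recognition complex, had no identifier paired with its name and is not analysed here. All 9 genes passed the filter on low counts in both library kits. Their identifiers are ENSMMUG00000000158 (MCM2), ENSMMUG00000021149 (MCM3), ENSMMUG00000015360 (MCM4), ENSMMUG00000021054 (MCM5), ENSMMUG00000017486 (MCM6), ENSMMUG00000013442 (MCM7), ENSMMUG00000005602 (MCM10), ENSMMUG00000004755 (CDC6) and ENSMMUG00000017495 (GMNN).

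Before a cell copies its DNA, the origin recognition complex, CDC6 and CDT1 load rings of MCM2 to MCM7 onto chromatin, which licenses origins to fire. MCM10 acts later, when the loaded helicase is switched on, and geminin, the product of GMNN, binds CDT1 and blocks further loading until the next division. A cleaving embryo starts on transcripts stored in the oocyte and turns to its own genome at about the 8-cell stage in the rhesus monkey, dividing without a long growth phase.

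Each library came from 1 whole embryo, made by in vitro fertilisation of in vivo matured oocytes from females given FSH and hCG, and cultured in HECM-9 medium with or without relaxin. The labels do not say which embryos received relaxin, nor their parents, and no genotype or strain is given. Libraries were made with the SPIA kit, which amplifies cDNA from total RNA by a single-primer isothermal method, or with the low-input SoLo kit, which depletes ribosomal sequences from the amplified library. SPIA libraries came from 9 embryos at the 8-cell stage, 11 at the morula stage, 14 expanded blastocysts and 2 delayed ones. SoLo libraries came from 4, 3 and 6 embryos of the first 3 of these stages. Of the SoLo libraries, 11 have a SPIA library of the same embryo by title. The other 2 belong to embryos 111215_01 and 111215_03 in an unknown order, and both embryos have a SPIA library. The kits are thus not independent sets of embryos. Embryos are named by their title codes, such as 020816_09. A title code was shared by 8-cell embryos and morulas only for code 020816 in SPIA, and by no pair of stages in SoLo. The expanded blastocysts of SPIA shared no code with 8-cell embryos or morulas. In SoLo, and in SPIA comparisons of expanded blastocysts with those stages, stage and title code cannot be told apart. P-values therefore measure the spread between these embryos.

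Totals ranged from 0.601 to 21.04 M counts (M, 1e6) in SPIA, while SoLo totals lay between 5.696 and 10.6 M. Depth and composition moved with stage: SPIA libraries averaged 12.8, 10.5 and 6.66 M counts in 8-cell embryos, morulas and expanded blastocysts, and SoLo 8-cell libraries held 9845 to 10413 identifiers at 5 counts per M or more, above all SoLo morulas (8823 to 9192) and expanded blastocysts (8796 to 9647). The part of these differences in the stage changes was not tested. The stage labels were checked against marker genes between the 8-cell stage and the expanded blastocyst. The 8-cell genes ZSCAN4 and TPRX1 fell in both kits (edgeR, adjusted p of 0.0174 or less). The trophectoderm genes GATA2, GATA3 and KRT18 rose in both kits, with adjusted p in the same range. LEUTX, also listed as an 8-cell gene, fell in SPIA (edgeR adjusted p = 0.000403). In SoLo its difference of -3.93 ± 1.65 on the log2 scale did not pass (adjusted p = 0.0817). Several libraries stood apart. Morula 022916_02 in SPIA had 581 CPM (scaled counts per M) summed over ZSCAN4, LEUTX and TPRX1, above the highest of the 8-cell libraries (197 to 575), while the other 10 morulas reached at most 70.7. Morula 022916_01 in SoLo had 1062 CPM summed over GATA2, GATA3 and KRT18, against 57.4 and 7.32 in the other morulas and 1259 to 2202 in expanded blastocysts. Expanded blastocyst 111715_05, the library of 0.601 M counts, had 45.7 CPM of that trophectoderm sum, where the other 13 had 108 or more, and no call on a licensing gene changed without it. Of 15 cumulus and granulosa cell markers, 11 were in the table, and their sum reached 1683 CPM in 8-cell SPIA libraries and 2373 in 8-cell SoLo libraries, against at most 214 in the other SPIA groups and 206 in the other SoLo groups. The 8-cell embryos 020816_06, 020816_07 and 112815_02 had the highest sums in both kits. Calls on licensing genes against the 8-cell stage are given below with and without the cumulus-rich embryos, and the part of cumulus transcripts was not tested beyond that. In SoLo those are 3 of the 4 8-cell embryos. The remaining one, 020816_08, had a cumulus sum of 74.7 CPM in its SoLo library. Its SPIA library had 239 CPM, above every library of the other SPIA groups. In whole embryos, fewer cells of a type and less RNA per cell cannot be told apart.

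**Figure D1:**
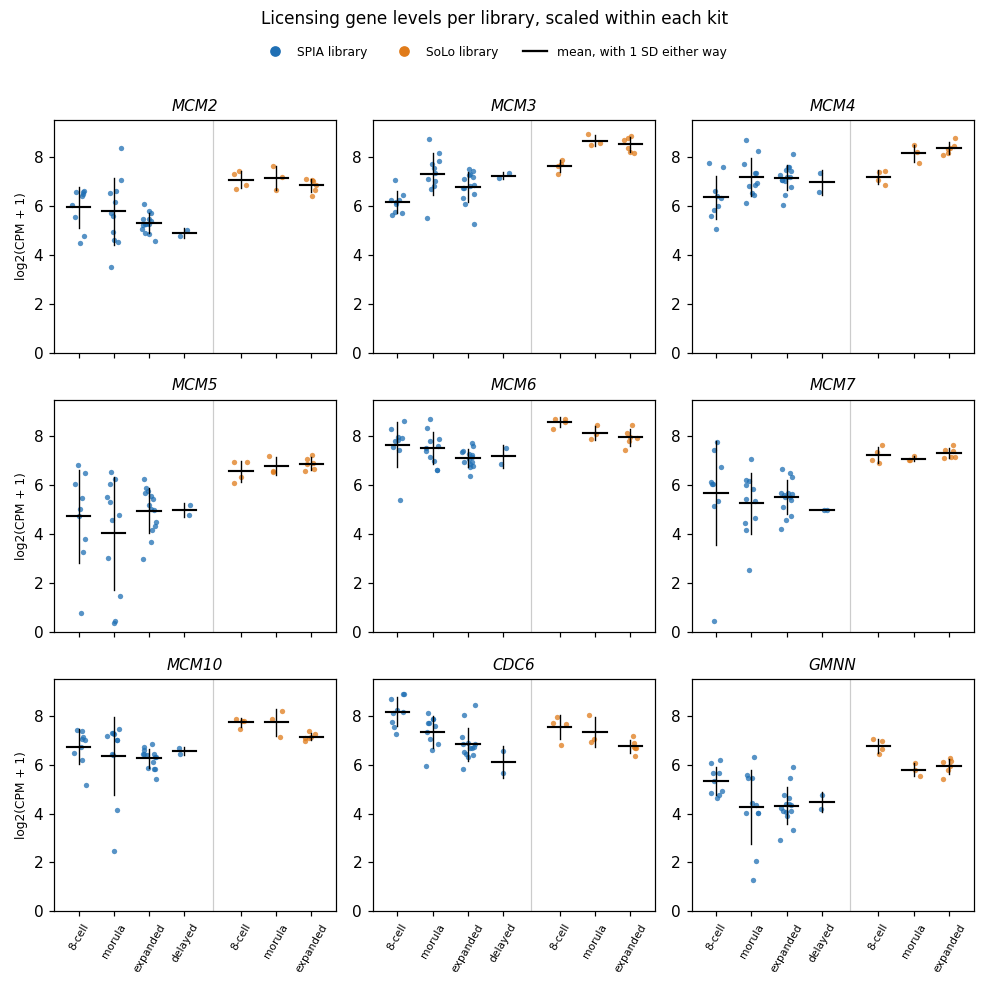
Level of each of the 9 licensing genes as log2(CPM + 1) (vertical axis) in every library by stage (horizontal axis), with blue points for SPIA and orange points for SoLo, scaled separately in each kit; black bars are group means with 1 SD either way. In SoLo, all 4 8-cell points of MCM3 and MCM4 lie below all morula and expanded blastocyst points, and those of GMNN lie above them, while the SPIA groups overlap and include MCM5 and MCM7 libraries near 0.

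MCM3, a ring subunit, was the licensing gene that rose from 8-cell embryos to morulas in both kits. In SoLo its level was 234, 209.7, 157 and 194 CPM in 8-cell embryos 020816_06, 020816_07, 020816_08 and 112815_02. It was 363, 487 and 380.2 CPM in morulas 021016_02, 021016_03 and 022916_01. Every SoLo morula was thus above every 8-cell embryo, and the log2 fold change was 1.04 ± 0.22 (SE; edgeR quasi-likelihood test, adjusted p = 0.00394). With 020816_08 as the only 8-cell embryo, the one with few cumulus transcripts in SoLo, it was 1.38. In SPIA the 9 8-cell embryos had a lowest, median and highest level of 47.7, 70.1 and 133 CPM, and the 11 morulas 43.8, 163 and 419 CPM. Morula 022916_02 was the lowest of its group and 8-cell embryo 011516_03 the highest of its own, and the ranges overlapped. MCM3 was higher in the morula in 87 of the 99 pairs of a morula and an 8-cell embryo, with a log2 fold change of 1.32 ± 0.34 (edgeR adjusted p = 0.00616). Without morula 022916_02 it was 1.43 (adjusted p = 0.00184), and without the 3 embryos rich in cumulus transcripts 1.36 (adjusted p = 0.0223). Within code 020816, with 5 8-cell embryos and 3 morulas, MCM3 differed by 1.58 (edgeR adjusted p = 0.42), in a fit that called 4 genes in all. It missed the threshold also among embryos with a SoLo library (0.92, adjusted p = 0.132), among those without one (1.51, adjusted p = 0.0942) and in libraries above 12 M counts (1.28, adjusted p = 0.726).

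MCM4, another ring subunit, rose in SoLo. Its level there was 173, 133, 114 and 165 CPM in the 8-cell embryos, in the order given for MCM3, and 353, 217 and 293 CPM in the morulas. The groups did not overlap, and the log2 fold change was 0.97 ± 0.23 (edgeR adjusted p = 0.0077), or 1.34 with 020816_08 as the only 8-cell embryo (adjusted p = 0.0227). In SPIA the lowest, median and highest MCM4 levels were 31.9, 78.1 and 212 CPM at the 8-cell stage and 67.9, 121 and 412 CPM in the morulas. These ranges overlapped widely, and the difference of 0.80 ± 0.36 on the log2 scale did not pass the test (edgeR adjusted p = 0.104). The SoLo calls held without morula 022916_01, at 1.09 for MCM3 and 0.96 for MCM4 (edgeR adjusted p = 0.00676 and 0.0189). The SPIA difference of MCM4 passed when 8-cell embryo 011516_02, the highest of its group, was left out (1.04, adjusted p = 0.0354), or 020816_06, the next highest (0.998, adjusted p = 0.0496).

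Both subunits were also above the 8-cell level in the expanded blastocysts of SoLo. In SoLo, MCM3 ranged from 288 to 464 CPM with a median of 368 in the 6 expanded blastocysts, and the log2 difference from the 8-cell stage was 0.89 ± 0.19 (edgeR adjusted p = 0.00169). MCM4 ranged from 271 to 434 CPM with a median of 322, and the difference was 1.17 ± 0.20 (edgeR adjusted p = 0.000289). None of these libraries fell into the 8-cell range of either gene. With 020816_08 as the only 8-cell embryo, the one SoLo embryo with few cumulus transcripts (74.7 CPM), the differences were 1.24 for MCM3 and 1.53 for MCM4 (edgeR adjusted p = 0.0156 and 0.00591), where that lone sample is assumed to vary like the other groups. In that fit the median over all genes was 0.51, against -0.05 with all 4 embryos, and in the like fit for the morula it was 0.33, against -0.06. In SPIA the expanded blastocysts had a lowest, median and highest level of 37.0, 113 and 181 CPM for MCM3 and 63.9, 143 and 275 CPM for MCM4. The SPIA differences of 0.69 ± 0.32 and 0.64 ± 0.34 were of the same sign and did not pass the test (edgeR adjusted p = 0.0872 and 0.137). Each passed without 1 embryo, MCM3 without 011516_03 (0.85, adjusted p = 0.0421) and MCM4 without 011516_02 (0.88, adjusted p = 0.0416).

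Counts of calls put these genes in context. The share of all genes whose stage groups did not overlap in SoLo was not counted, so non-overlap is given as description only. From the 8-cell stage to the morula in SPIA, 1 of the 9 licensing genes was called, where edgeR called 19.4% of all genes tested (9.06% higher and 10.3% lower). In SoLo 3 of 9 were called, 2 higher and 1 lower, where 16.7% of all genes were called (9.78% higher and 6.92% lower). From the 8-cell stage to the expanded blastocyst, 1 of 9 was called in SPIA, against 36.6% of all genes (12.9% higher and 23.7% lower). In SoLo 6 of 9 were called, 2 higher and 4 lower, against 38.4% of all genes (18.6% higher and 19.8% lower). The median log2 fold change of the 9 genes in this comparison was -0.69 in SPIA and -0.25 in SoLo, beside -0.43 and -0.05 over all genes. Among the SPIA embryos that also have a SoLo library, 4 of 9 were called lower in the latter comparison (MCM6, MCM10, CDC6 and GMNN), in a fit that called 3436 of 11938 genes. The count in SPIA thus depended on which embryos were compared.

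**Figure D2:**
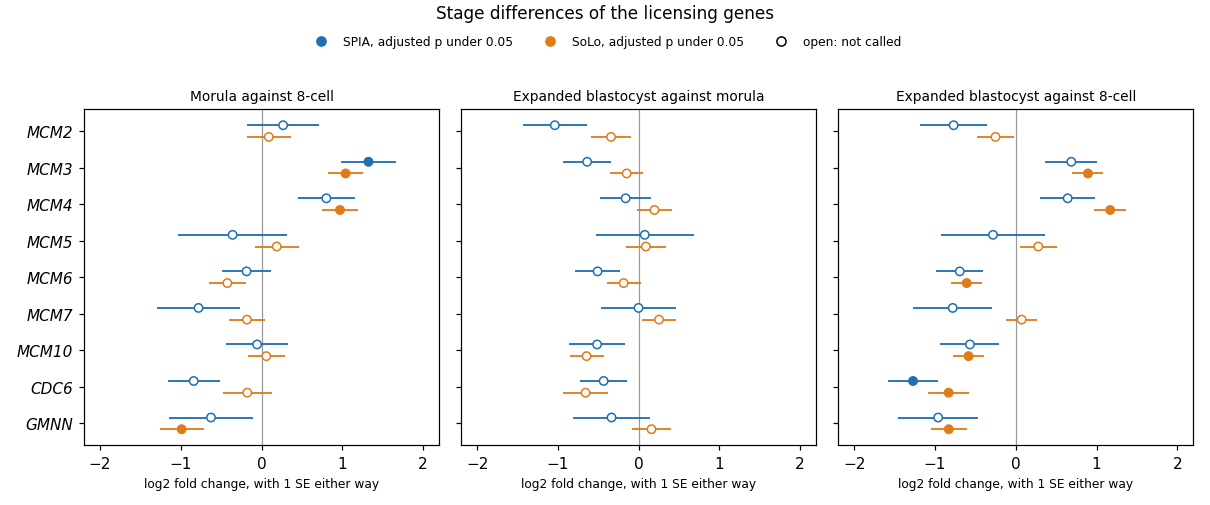
Log2 fold change with 1 SE either way (horizontal axis) of each licensing gene (vertical axis) in 3 stage comparisons, blue for SPIA and orange for SoLo; filled points have an edgeR adjusted p under 0.05. MCM3 and MCM4 lie to the right of 0 in both comparisons with the 8-cell stage, MCM6, CDC6 and GMNN lie to the left, and no point is filled between the morula and the expanded blastocyst.

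MCM6, a ring subunit as well, went the other way. In SoLo it measured 383, 422, 418 and 316 CPM in the 8-cell embryos and 352, 237 and 274 CPM in the morulas. The 6 expanded blastocysts had a lowest, median and highest level of 173, 246 and 348 CPM, and only 111715_04 was above an 8-cell embryo. MCM6 fell by 0.61 on the log2 scale between the 8-cell stage and the expanded blastocyst (SE 0.19; edgeR adjusted p = 0.0193), while the morula difference of -0.42 ± 0.23 did not pass (adjusted p = 0.216). With 020816_08 as the only 8-cell embryo the MCM6 difference was -0.73 (edgeR adjusted p = 0.0957). In SPIA the medians were 233, 185 and 137 CPM in stage order. The difference from 8-cell to expanded blastocyst was -0.69 ± 0.29 (edgeR adjusted p = 0.0534), beside a median of -0.43 over all genes. It passed without 8-cell embryo 020816_09, whose 41.1 CPM lay far below the other 8 (171 to 389 CPM), at -0.83 (adjusted p = 0.00913). It passed too without 8-cell embryo 020816_10 or expanded blastocyst 111215_01 or 112515_03 (adjusted p = 0.0405 to 0.0494).

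The counts of 2 genes in the same library can be set against each other without any scaling between libraries. In SoLo the log2 ratio of MCM3 to MCM6 counts was -0.71, -1.01, -1.41 and -0.70 in the 8-cell embryos and 0.04, 1.04 and 0.47 in the morulas. In the 6 expanded blastocysts it ran from 0.21 to 1.04. The ratio of MCM4 to MCM6 ran from -1.87 to -0.94 in 8-cell embryos, from -0.13 to 0.10 in morulas and from 0.18 to 0.65 in expanded blastocysts, so the 3 stages did not overlap. In SPIA the mean MCM4 to MCM6 ratio was -1.32 ± 0.62 (SD, n = 9) in 8-cell embryos, -0.34 ± 0.85 (n = 11) in morulas and 0.04 ± 0.32 (n = 14) in expanded blastocysts. The MCM3 to MCM6 ratio in SPIA averaged -1.52 ± 0.82, -0.20 ± 0.69 and -0.33 ± 0.80 in the same order, and the highest 8-cell value, 0.35, came from 020816_09, the embryo low in MCM6. For other genes over MCM6, the SoLo means in stage order were -1.05, -0.82 and -1.21 for CDC6 and -1.83, -2.38 and -2.04 for GMNN. In the SoLo levels above, MCM3 and MCM4 were called higher in morulas and expanded blastocysts than in 8-cell embryos. MCM6 was called lower there only in expanded blastocysts. In SPIA only the rise of MCM3 to the morula was called among these genes. Their ratios restate those changes and are no separate support. A ratio of counts shows unequal change of 2 subunits, and its absolute size also depends on transcript length.

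**Figure D3:**
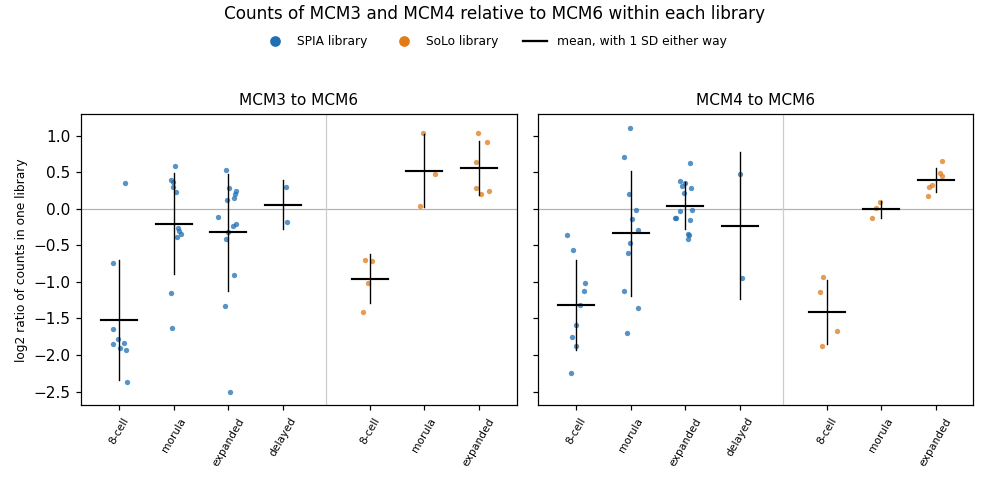
Log2 ratio of MCM3 (left) and MCM4 (right) counts to MCM6 counts in the same library (vertical axis) by stage (horizontal axis), blue for SPIA and orange for SoLo, with black bars for the mean and 1 SD either way. All SoLo 8-cell points lie below -0.7, and all SoLo morula and expanded blastocyst points lie above -0.13.

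The remaining ring subunits, MCM2, MCM5 and MCM7, were called in no stage comparison. In SoLo, MCM2 had median levels of 136, 142 and 121 CPM in 8-cell embryos, morulas and expanded blastocysts, MCM5 of 100.5, 94.95 and 118 CPM, and MCM7 of 146, 129 and 155 CPM. Their ranges overlapped between all stages. In SPIA the 11 morulas ranged in MCM2 from 10.2 CPM in 020816_03 to 330 CPM in 022416_03, with the next highest, 022916_03, at 133 CPM. The MCM2 difference from morula to expanded blastocyst in SPIA was -1.04 ± 0.40 (edgeR adjusted p = 0.0671). It passed when morula 020816_02, 020816_03, 021016_04 or 022916_01 was left out, with values of -1.13 to -1.16 and adjusted p of 0.0338 to 0.0484. Without morula 022416_03, the highest, it was -0.52 (adjusted p = 0.382).

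MCM5 and MCM7 came close to dropping out of single SPIA libraries. MCM5 was at 0.728 CPM in 8-cell embryo 020816_09 (8 counts) and at 0.287, 0.366 and 1.75 CPM in morulas 022916_02, 022916_03 and 021016_04, while the medians were 31.8 CPM at the 8-cell stage and 26.6 CPM in morulas. MCM7 was at 0.364 CPM in 020816_09 (4 counts) and at 34.5 to 217 CPM in the other 8 8-cell embryos. In SoLo, MCM5 was at 67.7 CPM or more and MCM7 at 120 CPM or more in every library. MCM7 lies over AP4M1 and the microRNA genes MIR25, MIR93 and MIR106B in the RefSeq gene table used here (assembly T2T-MMU8v2.0), and MCM2 over a long noncoding RNA gene, so those counts may include reads of their neighbours.

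MCM10, which acts as the helicase starts, was lower in the expanded blastocysts of SoLo than in 8-cell embryos. Its level was 222, 176, 218 and 232 CPM in the 8-cell embryos, against 123 to 164 CPM in the 6 expanded blastocysts, without overlap. The difference was -0.59 ± 0.19 (edgeR adjusted p = 0.025), and it was -0.63 with 020816_08 as the only 8-cell embryo (adjusted p = 0.152). It also missed the threshold without 8-cell embryo 020816_06 or 112815_02 or without one of the expanded blastocysts of code 111215 (adjusted p = 0.0511, 0.0505 and 0.0546). The 3 morulas spread from 140 CPM in 022916_01, the one rich in trophectoderm transcripts, to 231 and 293 CPM in the others. Without 022916_01 the MCM10 difference between morula and expanded blastocyst was -0.89 (edgeR adjusted p = 0.00882), against -0.64 with it (adjusted p = 0.141). Without 021016_02, the highest morula, it was -0.39 (adjusted p = 0.567). In SPIA, MCM10 had medians of 129, 129 and 81.8 CPM in stage order and was called in no comparison. There, morulas 022916_02 and 022916_03 were at 4.52 and 16.9 CPM, and the other 9 at 83.8 CPM or more.

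CDC6, the loader that brings the ring to the origin complex, fell between the 8-cell stage and the expanded blastocyst in both kits. In SPIA its lowest, median and highest levels were 152, 284 and 478 CPM at the 8-cell stage, 60.1, 189 and 274 CPM in the morulas and 54.8, 102 and 350 CPM in expanded blastocysts. An expanded blastocyst exceeded an 8-cell embryo in 9 of 126 pairs. The log2 difference was -1.27 ± 0.30 (edgeR adjusted p = 0.0011), and -1.27 without the 3 cumulus-rich embryos (adjusted p = 0.00431). Among the SPIA embryos that have no SoLo library it was -0.87 (adjusted p = 0.216). The SPIA difference between 8-cell embryos and morulas was -0.84 ± 0.32 (edgeR adjusted p = 0.0596). It passed when 8-cell embryo 020816_09 or 020816_10, or morula 021016_02 or 022916_02, was left out (adjusted p = 0.0393 to 0.0469).

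In SoLo, CDC6 was at 203, 206, 249 and 112 CPM in the 8-cell embryos and at 261, 121 and 130 CPM in the morulas. The expanded blastocysts ranged from 79.97 to 142 CPM, below 3 of the 4 8-cell embryos and on both sides of 112815_02. The difference from the 8-cell stage was -0.83 ± 0.25 (edgeR adjusted p = 0.0165). It was -0.69 without 020816_08, the highest embryo (adjusted p = 0.0621), and -1.20 with 020816_08 as the only 8-cell embryo (adjusted p = 0.0242).

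GMNN, which encodes the inhibitor geminin, fell from 8-cell embryos to morulas in SoLo. Its level was 97.7, 85.0, 122 and 130 CPM in the 8-cell embryos and 53.6, 65.9 and 45.4 CPM in the morulas, without overlap. The difference was -0.99 ± 0.27 (edgeR adjusted p = 0.0199), and -1.16 with 020816_08 as the only 8-cell embryo (adjusted p = 0.0454). The call was lost without morula 021016_02 or 022916_01 (adjusted p = 0.0627 and 0.0742) and when the model held only the groups compared (adjusted p = 0.0716). The 6 expanded blastocysts, at 41.6 to 75.4 CPM, were also all below the 8-cell embryos, with a difference of -0.83 ± 0.22 (edgeR adjusted p = 0.00743), or -0.999 with 020816_08 alone (adjusted p = 0.0374). In SPIA, GMNN had a median of 39.6 CPM in 8-cell embryos, 19.2 CPM in morulas and 18.6 CPM in expanded blastocysts. The ranges overlapped, with morulas from 1.401 to 79.5 CPM, and the SPIA differences from the 8-cell stage of -0.63 ± 0.52 and -0.96 ± 0.49 did not pass (edgeR adjusted p = 0.429 and 0.121). Without morula 022916_02, the highest of its group, the former was -0.93 (adjusted p = 0.2).

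No licensing gene was called between the morula and the expanded blastocyst in either kit, where edgeR called 14.7% of all genes in SPIA (4.71% higher and 9.95% lower) and 1.14% in SoLo (0.113% higher and 1.03% lower). At an unadjusted p under 0.05 there were 2 in SPIA (MCM2 and MCM3) and 2 in SoLo (MCM10 and CDC6). DESeq2 also called none of the 9 in SPIA or in SoLo. The SoLo background depended on single libraries, since 162 genes were called with all of them and 1477 without morula 022916_01. For the delayed against the expanded blastocyst, 0 of 9 licensing genes and 0% of 15578 genes were called by edgeR (196 genes at an unadjusted p under 0.05, and 22 called by DESeq2). The 2 delayed blastocysts had 49.3 and 94.0 CPM of CDC6, 140 and 161 CPM of MCM3, 160 and 94.9 CPM of MCM4 and 114 and 183 CPM of MCM6. All of these values lay within the range of the 14 expanded blastocysts except the lower CDC6 value.

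The kits were compared over the embryos that have both. With joint scaling, CDC6 was lower in SoLo in all 11 embryos with matching titles, by 0.60 to 2.11 on the log2(CPM + 1) scale. By stage, SoLo minus SPIA was -2.11 to -1.30 in 8-cell embryos, -1.56 to -0.91 in morulas and -1.23 to -0.60 in expanded blastocysts. An example is 8-cell embryo 020816_06, with 714 CPM in SPIA and 164 CPM in SoLo. The fitted difference was -1.20 ± 0.19 (edgeR adjusted p = 1.07e-05). MCM3 was higher in SoLo in 10 of 11 embryos (0.65 ± 0.15, adjusted p = 0.00151), as were MCM7 (0.61 ± 0.20, adjusted p = 0.0216) and GMNN (0.66 ± 0.21, adjusted p = 0.0182). With each embryo as a block, the GMNN call was lost (0.63, adjusted p = 0.0655), and MCM3, MCM7 and CDC6 were called. Expanded blastocyst 111715_02, whose 2 libraries did not resemble each other, bore on the MCM7 call: without it the blocked value was 0.50 (adjusted p = 0.0889). MCM7 also missed the threshold over the 11 paired embryos without a block (0.51, adjusted p = 0.109). In all, 4 of 9 licensing genes were called, 3 higher and 1 lower, where edgeR called 23.3% of all genes (11.8% higher and 11.4% lower).

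**Figure D4:**
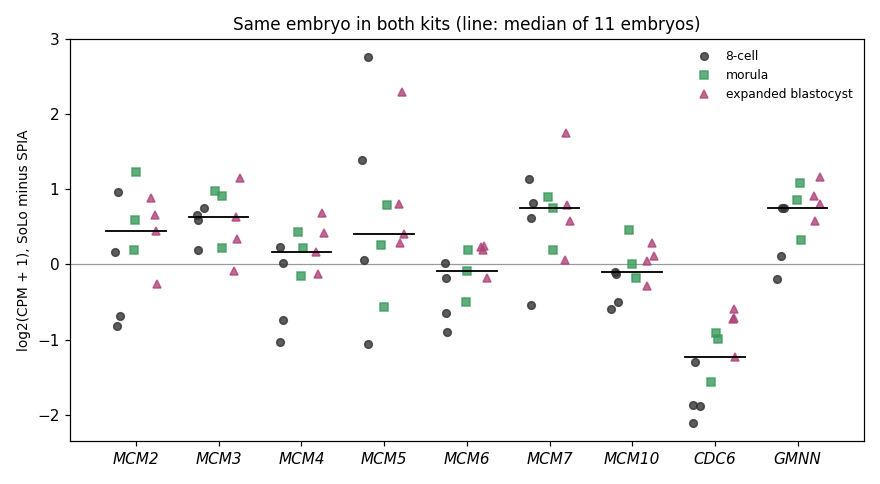
Difference between SoLo and SPIA in log2(CPM + 1) with joint scaling (vertical axis) for each licensing gene (horizontal axis), with a point for each of 11 embryos measured in both kits, a symbol for each stage and a black line at the median. CDC6 lies below 0 in all 11 embryos, and MCM3, MCM7 and GMNN lie above 0 in 10 of 11.

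Whether a stage difference depended on the kit was tested as an interaction over libraries of the same embryos, with no term for the embryo. The terms tested were morula minus 8-cell and expanded blastocyst minus morula. No licensing gene was called, and neither was any other gene (0% of 14873 in both interaction terms; 1425 and 783 genes at an unadjusted p under 0.05). For MCM4, called in SoLo alone between 8-cell and morula, the SoLo change minus the SPIA change was 0.67 ± 0.44 on the log2 scale (edgeR adjusted p = 0.668). For GMNN it was 0.51 ± 0.56 (adjusted p = 0.857), the SPIA difference among embryos with a SoLo library being -1.48. For CDC6 the terms were 0.68 ± 0.48 and 0.33 ± 0.44 in the order given, and neither was called. A difference between the kits in these steps was therefore not detected. Standard errors of this size do not show that the changes are alike. With each embryo as a block, no gene was called in either term. The change from the 8-cell stage to the expanded blastocyst was not tested as an interaction.

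The other genes of DNA replication were followed in 8 lists of 77 genes tested. Between the 8-cell stage and the expanded blastocyst, 4 rose and 18 fell in SPIA (median -0.46, against -0.43 over all genes), and 13 rose and 17 fell in SoLo (median -0.20, against -0.05). Over all genes 12.9% rose and 23.7% fell in SPIA, and 18.6% rose and 19.8% fell in SoLo, and the counts in single lists below are to be read against these shares. PCNA, the sliding clamp, fell by 1.44 on the log2 scale in SPIA and by 0.94 in SoLo (edgeR adjusted p = 0.0031 and 0.0011), and CLSPN, the checkpoint adaptor claspin, by 2.77 and 2.47 (8e-09 and 7.99e-06). LIG1, the ligase that seals lagging-strand fragments, rose by 2.03 and 2.87 (0.0226 and 2.63e-06). In the replisome list as a whole, 2 of 26 rose and 6 fell in SPIA, and 6 rose and 6 fell in SoLo.

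**Figure D5:**
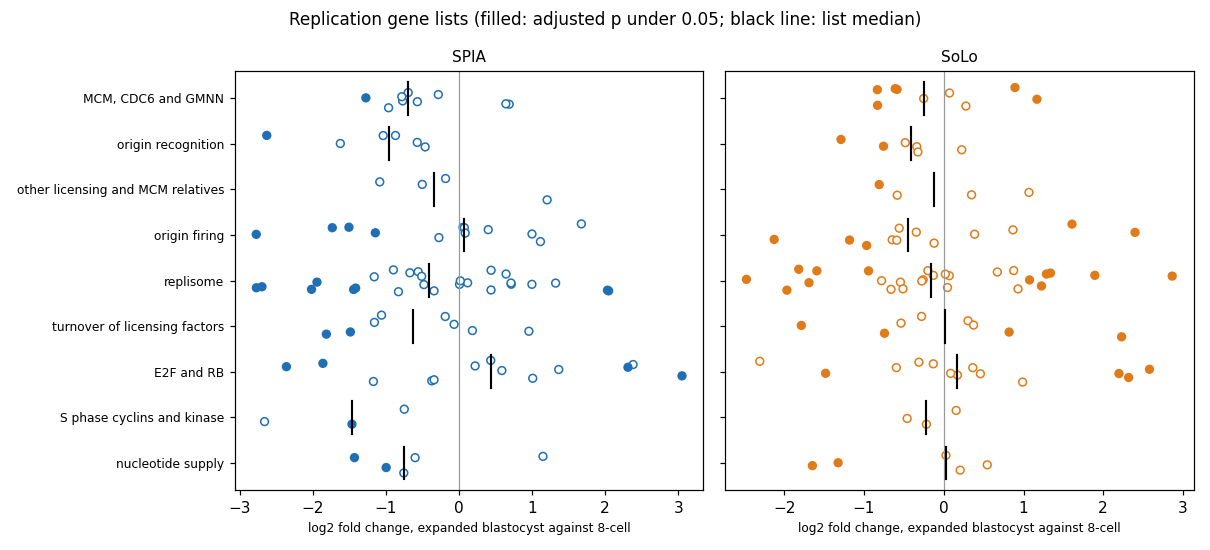
Log2 fold change from the 8-cell stage to the expanded blastocyst (horizontal axis) of the licensing genes and of the genes in 8 other replication lists (vertical axis), SPIA on the left and SoLo on the right; each point is a gene, filled where the edgeR adjusted p is under 0.05, and black lines are list medians. Called genes lie on both sides of 0 in the replisome and E2F and RB lists of both kits.

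Among the partners of CDC6 in loading, CDT1 fell by 0.81 on the log2 scale between the 8-cell stage and the expanded blastocyst in SoLo (edgeR adjusted p = 0.0207), and its SPIA difference was -1.08 ± 0.75 (adjusted p = 0.265). In the origin recognition list, 1 of 6 fell in SPIA, which was ORC5 (-2.63 ± 0.73, adjusted p = 0.00426). In SoLo 2 of 6 fell, ORC2 (-0.76 ± 0.23, adjusted p = 0.0157) and ORC3 (-1.29 ± 0.22, adjusted p = 0.000274). The list of other licensing factors and MCM relatives had 4 genes tested, of which CDT1 in SoLo was the only call in a stage comparison.

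Of the origin firing genes, CDC45, which travels with the active helicase, fell in SPIA by 1.73 on the log2 scale between the 8-cell stage and the expanded blastocyst (edgeR adjusted p = 0.0177), and its SoLo difference was -0.34 ± 0.22 (adjusted p = 0.235). DBF4, the activator of the CDC7 kinase, fell in SoLo by 1.18 (adjusted p = 0.00288), and its SPIA difference was 0.06 ± 0.45 (adjusted p = 0.94). GINS1 rose in SoLo by 1.61 and GINS2 fell by 0.97 (edgeR adjusted p = 0.00179 and 0.0235), although both encode subunits of the same GINS complex. GINS2 fell in SPIA too (log2 difference -1.504, adjusted p = 0.0389). In all, 0 of 12 firing genes rose and 4 fell in SPIA, where 12.9% of all genes rose and 23.7% fell. In SoLo 2 rose and 3 fell, where 18.6% of all genes rose and 19.8% fell.

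Of the factors that destroy or restrain licensing proteins, DTL, the receptor through which CUL4 ligases degrade CDT1, fell by 1.81 in SPIA and by 0.74 in SoLo between the 8-cell stage and the expanded blastocyst (edgeR adjusted p = 9.14e-05 and 0.0178). FBXO5, an inhibitor of the anaphase-promoting complex, fell by 1.48 and 1.79 (adjusted p = 0.0063 and 6.9e-05). SKP2, an adaptor for degradation of CDT1 and of cell cycle inhibitors, rose in SoLo by 2.23 (adjusted p = 1.12e-05). This list had 0 of 8 higher and 2 lower in SPIA, and 2 higher and 2 lower in SoLo.

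The E2F and RB list holds factors that drive and factors that restrain transcription of many replication genes. It had 2 of 13 higher and 2 lower in SPIA and 3 higher and 1 lower in SoLo. Over all genes, 36.6% and 38.4% were called in either direction. E2F3 rose by 2.31 and 2.58, and E2F8 by 3.05 and 2.197 (edgeR adjusted p of 0.0393 or less). TFDP1, the usual dimer partner of E2F proteins, rose by 2.32 in SoLo (adjusted p = 5.52e-06), whereas E2F1 fell by 1.86 in SPIA (adjusted p = 0.0465) and its SoLo difference was -0.59 ± 0.63 (adjusted p = 0.478). Of the S phase cyclins, CCNE1 fell in SPIA by 1.46 (adjusted p = 0.00233). CCNE1 also fell from the morula to the expanded blastocyst in both kits, by 1.09 and 1.19 (adjusted p = 0.0341 and 0.0316), and CCNA2 and CCNE2 were called in no stage comparison. In the nucleotide supply list RRM1, a ribonucleotide reductase subunit, fell by 1.43 and 1.33 in SPIA and SoLo (adjusted p = 0.00273 and 0.00111).

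From 8-cell embryos to morulas, 1 of the 77 genes rose and 5 fell in SPIA, where 9.06% of all genes rose and 10.3% fell. In SoLo 10 rose and 4 fell, where 9.78% of all genes rose and 6.92% fell. In SoLo the genes that rose alongside MCM3 and MCM4 included LIG1 (2.45 ± 0.31), TFDP1 (2.10 ± 0.28) and CUL4A (1.08 ± 0.29; edgeR adjusted p of 0.018 or less). CUL4A was also the gene that rose in SPIA (1.47 ± 0.47, adjusted p = 0.0249). RPA2, a subunit of the single-strand binding protein, fell by 2.28 in SPIA and by 2.39 in SoLo (adjusted p = 0.0384 and 5.12e-05). Between the morula and the expanded blastocyst, 1 rose and 8 fell in SPIA, beside 4.71% and 9.95% of all genes, and 2 fell in SoLo, beside 1.03%.

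Over the 15 pairs of MCM2 to MCM7, the Spearman coefficient of deviations from the stage mean ranged from -0.36 to 0.63 with a median of 0.040 in 36 SPIA libraries. In 13 SoLo libraries it ranged from -0.49 to 0.57 with a median of 0.099. MCM5 and MCM7, the pair with the highest coefficient in SPIA at 0.63, had -0.49 in SoLo. MCM4 and MCM6 had 0.42 in SPIA and 0.46 in SoLo, and the highest SoLo coefficient, 0.57, was that of MCM2 and MCM6, which had 0.012 in SPIA. The coefficient was above 0 for 11 of the 15 pairs in SPIA and for 8 in SoLo. MCM6 and CDC6 had a coefficient of 0.85 in SoLo and 0.22 in SPIA. Libraries share depth and scaling in these values, which are descriptions only.

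The genes whose levels most resembled the mean standardised level of MCM2 to MCM7 over the 36 SPIA libraries, out of 6036 named genes at 10 CPM or more, were TRIR, SNF8, RPL7L1, ABHD18 and PSMC5, with Spearman coefficients of 0.60 to 0.63. Over the 13 SoLo libraries their coefficients were -0.0055, 0.32, 0.011, 0.27 and 0.61 in that order, so the likeness was not of the same size there except for PSMC5. The mean of the subunits had a Spearman coefficient with the total counts of a library of 0.20 in SPIA and 0.53 in SoLo.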

How the data were processed

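The table that the authors deposited holds raw counts as whole numbers, 1 column for each library, judged from its values. HISAT2 and DESeq2 were used by the authors, per the submitters' processing notes, without versions. What counted the reads, on which build and annotation and with what use of strand was not given in the sources used here. No coordinates or sequences are printed. Of 52 columns, 49 were matched to samples by title or, for 2 columns of code 111215, by group. No sample matched the remaining 3 columns, which stayed out, and 3 of 52 samples without a matched column were not analysed here. Names came from the identifier list given with the data.

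Tests were quasi-likelihood tests of edgeR 4.0.16 in R 4.3.3 (TMM scaling, filterByExpr, robust fit), with Benjamini-Hochberg adjustment over all genes and a threshold of 0.05. All 4 SPIA groups entered 1 fit and all 3 SoLo groups another. Kits were compared over 13 libraries each with stage in the model. CPM are counts per M of TMM-scaled library size, scaled within a kit, so levels are not compared between kits except in the joint fit. Standard errors come from the fold change and the F statistic. Alternatives used DESeq2 1.42.0 and voom from limma 3.58.1, and the test scripts were checked on simulated data. Python 3.11.15 gave the rest, with scipy 1.17.1, pandas 2.3.3, numpy 2.4.6 and, for figures, matplotlib 3.10.9. Ratios used counts plus 0.5 and were not among the planned results. Reads carry no molecular identifiers, so depth gives the counting error only.

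Libraries of the same stage, code and number were taken as pairs from the same embryo, because their titles match. The 11 pairs had a median correlation of 0.191 between their deviations from group means, 10 of them above 0.1. Expanded blastocyst 111715_02, at -0.018, did not. The members and lists were chosen with earlier results of these data known. Named were all 9 members in every comparison, 9 fixed replication genes, list genes that were called (at most 6 per list and comparison, by size of change), and the 5 genes most like the ring subunits. Leaving out embryos with cumulus transcripts in SoLo, the SPIA embryos without a SoLo library, and the paired fits without a block or without 111715_02 were alternatives chosen after seeing the data. Levels per coding length, which would allow comparison between genes, were not computed because no protein table was used here.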

Additional observations from a re-analysis of the deposited data

Results flagged for a closer look

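In groups of 4 to 10 embryos, 2 of 27 combinations of gene and group had an embryo far from the rest by Dixon's criterion on log2(CPM + 1). Both concern 8-cell embryo 020816_09 in SPIA, with 41.1 CPM of MCM6 (452 counts) and 0.364 CPM of MCM7 (4 counts). Chance alone marks about 1 in 20 such combinations. The same library had the lowest MCM4 and MCM5 of its group, at 31.9 and 0.728 CPM, and the highest MCM2 and MCM10, at 96.4 and 171 CPM. It held 16.5 M counts, with 5563 identifiers at 5 counts per M or more, the fewest of the 8-cell SPIA libraries (median 7501). The part of library quality in these values was not tested.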

How the results depend on the processing

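Of 1575 recomputed fold changes of single genes none reversed, 19 lost and 30 gained a call; where neither fit made a call, 83 of 1321 had the other sign. Numbers of licensing genes called moved as follows. From 8-cell to morula in SPIA (1 called), the count was 2 with DESeq2, 2 with edgeR on DESeq2 size factors and 2 with voom (title code as a random block). It was 0 above 12 M counts, 0 within code 020816 (MCM3 1.58, adjusted p = 0.42), 0 among embryos with a SoLo library (MCM3 0.92, adjusted p = 0.132) and 0 among those without one (MCM3 1.51, adjusted p = 0.0942). From 8-cell to expanded blastocyst in SPIA (1 called), it was 2 with DESeq2, DESeq2 size factors, the stricter filter, only the groups compared, voom and libraries under 12 M counts, 4 among embryos with a SoLo library and 0 among those without. From morula to expanded blastocyst in SPIA (0 called), it was 1 under 12 M counts. Leaving out 1 embryo at a time gave 1 to 2, 1 to 2 and 0 to 1 in these comparisons. In SoLo it gave 2 to 3 from 8-cell to morula (3 called) and 5 to 6 from 8-cell to expanded blastocyst (6 called). From morula to expanded blastocyst in SoLo (0 called) it gave 0 to 1. For delayed against expanded blastocysts in SPIA (0 called) it gave 0. Between kits (4 called), the replicate block by embryo gave 3, the 11 paired embryos without a block 2, and the block without 111715_02 also 2; the blocked interaction gave 0. The cause of these moves was not tested, except that subsets hold fewer embryos. 

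Counts over all genes moved by more than 1.5 times in these cases. From 8-cell to morula in SPIA (3024), they were 4634 without a filter, 1586 with the stricter one, 446 with only the groups compared, 1988 with voom, 1876 under and 0 above 12 M counts, 4 within code 020816, and 894 with and 741 without a SoLo library. From morula to expanded blastocyst in SPIA (2283), they were 3792, 1203 and 1297 for the first 3 settings, 1310 under 12 M counts, and 53 with and 678 without a SoLo library. From 8-cell to expanded blastocyst in SPIA (5708), they were 3434 with the stricter filter, 3704 with only the groups compared, and 3436 with and 2868 without a SoLo library. In SoLo, DESeq2 gave 3579 and only the groups compared 1266 from 8-cell to morula (2371), and DESeq2 679 from morula to expanded blastocyst (162), where leaving out 1 embryo gave 5 to 1477. For delayed blastocysts (0), DESeq2 gave 22 and the stricter filter 1.

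With DESeq2 in place of edgeR, the share of calls that were higher went from 32.1 to 44.6% (SPIA) and from 9.88 to 42.6% (SoLo) between morula and expanded blastocyst, and from 58.5 to 44.9% between 8-cell and morula in SoLo. With voom, higher calls made up 66.2% (35.3% in the edgeR fit) from 8-cell to expanded blastocyst and 77.5% (32.1%) from morula to expanded blastocyst in SPIA, with all-gene medians of 0.51 and 0.41. Modelling only the groups compared gave 47.8% from 8-cell to morula and 29.2% from morula to expanded blastocyst in SoLo, and leaving out the cumulus-rich embryos 71% from 8-cell to morula. DESeq2 size factors moved the median of all genes from -0.43 to -0.31 (8-cell to expanded blastocyst) and from -0.29 to -0.14 (morula to expanded blastocyst) in SPIA. The thinnest library had 0.601 M counts.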
